A study of Mus musculus with 8 samples.

Results

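The 9 genes described here are transcription factors, cofactors and a signalling gene by which upper-layer and callosal projection neurons of the cortex are commonly recognised: *Cux1*, *Cux2*, *Pou3f1*, *Pou3f2*, *Pou3f3*, *Lmo4*, *Rorb*, *Lhx2* and *Rasgrf2*. They were chosen by name, with no measured value in the rule, from 38031 genes to which the transcripts of the count table could be assigned, and each gene was read from its transcript with the lowest Ensembl number. All 9 passed the filter on low counts, as did 9959 genes in all.

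RNA was sequenced from the primary motor cortex (M1) of wild-type male Swiss Webster mice that had received a lentivirus at postnatal day 21 to 25 and were dissected at postnatal day 49 to 53. In 4 libraries the virus carried the *Fezf2 shRNA* and in 4 it carried a *non-silencing shRNA*, the control. Both vectors also expressed the red reporter mCherry, and both ran from a rat *Synapsin I* promoter fragment, so that hairpin expression was directed to neurons of every kind, while the dissected tissue held all layers and meninges and hence many cells without virus. Library sums lay between 54684016 and 58003814 counts over 1 transcript per gene. In such bulk tissue, fewer cells of a type and less RNA per cell cannot be told apart.

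Projection neurons of the neocortex fall into classes by the place their axons reach. Neurons of layer 5 that project below the cortex depend on *Fezf2* during development, whereas many neurons of layers 2 to 4 send axons through the corpus callosum or stay within the cortex. In development, the factors of the 2 classes hold each other in check, which makes the upper-layer genes a natural readout when *Fezf2* is lowered in the mature cortex. The question addressed here is whether their RNA differed between *Fezf2 shRNA*-treated and control M1.

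The hairpin that defines the treated group is shown because any stretch of a transcript complementary to it could be bound. Its sense strand is identical to *Fezf2* mRNA. In the antisense strand the capitals mark the seed, taken as bases 2 to 8 of these 19, counted from the 5′ end. In the sense strand, capitals mark the complement of that seed. Where the strands begin once processed from the hairpin was not measured, and another start would give another seed.

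Fezf2 shRNA sense strand: gggaactacaaGAATCACa
Fezf2 shRNA antisense strand: tGTGATTCttgtagttccc

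The 19 bases lie in the coding sequence of *Fezf2* across an exon junction (GRCm38, chromosome 14, minus strand, GENCODE M21). In the 5-exon transcript ENSMUST00000022262, 1 base is the last of exon 4, at 12343639, and 18 are the first of exon 5, from 12342741 to 12342758. None of the 9 genes held the site GAATCAC, complementary to the antisense seed, in any of its annotated spliced transcripts, where 19.7% of the tested genes did. The site TAGTTCC, complementary to the seed of the opposite strand, was held by at least 1 annotated transcript of 4 of the 9 genes (*Cux2*, *Lhx2*, *Pou3f2* and *Rorb*), where 19.6% of the tested genes held it. Within the counted transcripts it occurred 2 times in *Rorb* and 1 time in *Pou3f2*. The longest stretch shared with either strand was 12 bases, in *Cux1*, and 7 or 8 bases in the others. These matches describe sequence and say nothing of binding.

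*Fezf2* itself, read over its whole 3.86 kb interval (chromosome 14, 12342102 to 12345959), gave normalised read counts of 688, 767, 735 and 702 in control libraries 1 to 4, and of 621, 583, 568 and 592 in *Fezf2 shRNA* libraries 1 to 4. The groups did not overlap. This gave a log2 fold change of -0.29 ± 0.08 (SE), with an adjusted p of 0.082 in edgeR's quasi-likelihood test, so the targeted gene was lower in all treated libraries and did not pass the threshold. The threshold used throughout was an adjusted p of at most 0.05 with a log2 fold change of at least 0.2 in either direction. Markers of excitatory cortical neurons were abundant, as the tissue label requires: the summed counts of 6 genes, among them *Slc17a7* and *Camk2a*, lay between 83332 and 94889 in controls and between 82913 and 96752 in treated libraries. Of these 6 genes 5 had a negative log2 fold change, where 5640 of all 9959 tested genes did. Their median was -0.11, beside -0.03 for all tested genes, and none passed.

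None of the 9 genes passed the threshold, against 2.09% of all tested genes (1.96% higher and 0.131% lower). At an unadjusted p below 0.05 edgeR counted 1 of the 9, *Cux1*, where 19.6% of all tested genes fell below that level. DESeq2, run on the same counts, called *Cux1* alone (adjusted p = 0.029), while it called 7.55% of all genes without its prior on fold changes. The groups overlapped in all 9 genes, while they were fully separated in 11.8% of all tested genes. Of the 9 genes 6 had a positive log2 fold change, and the median of the 9 was 0.05. Over all tested genes 43.4% were positive, with a median of -0.03.

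**Figure D1:**
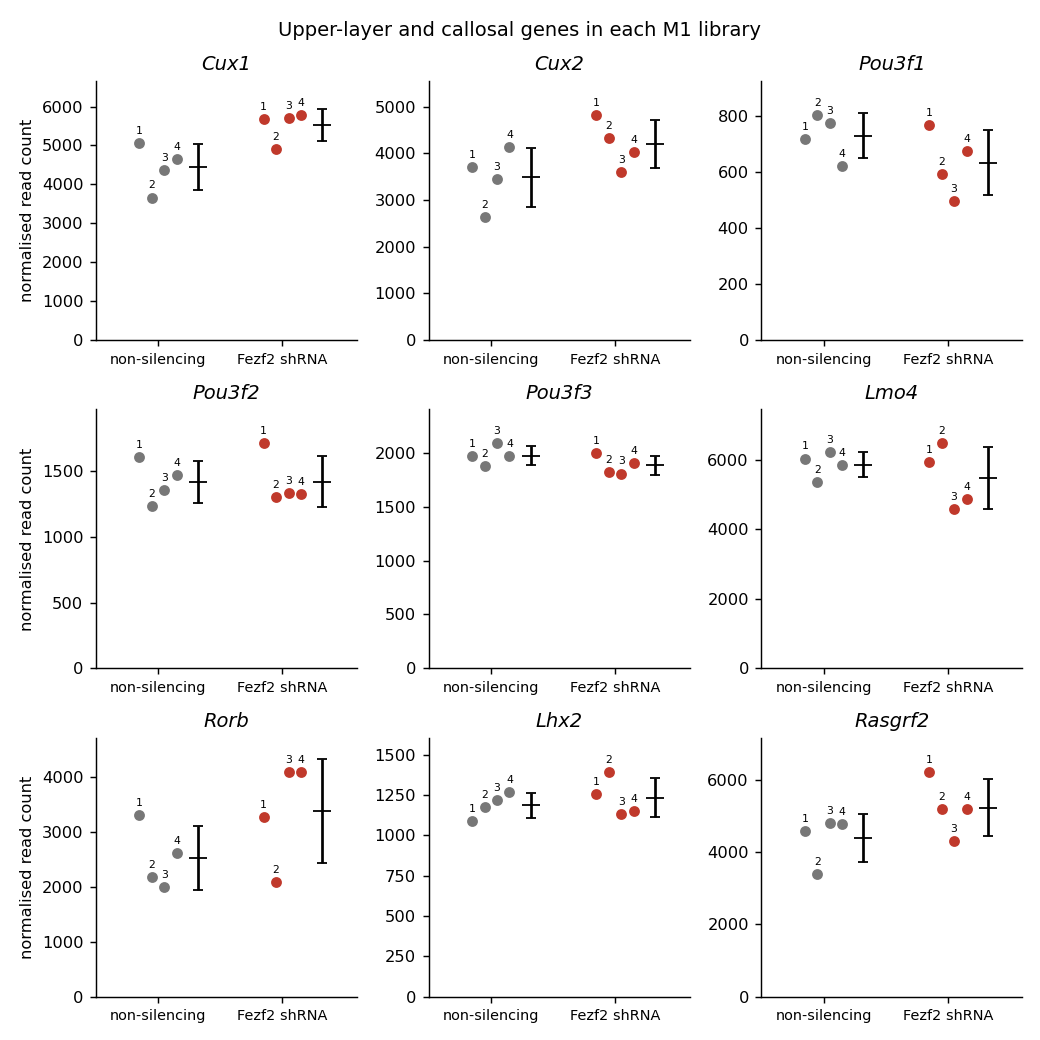
Normalised read count (vertical axis, from 0) of each of the 9 genes in the 4 control (grey) and 4 Fezf2 shRNA (red) libraries; digits are replicate numbers, and the black marks give the mean and SD of each group. The groups overlap in every panel, and in Cux1 and Rasgrf2 3 of 4 treated libraries lie above the highest control.

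*Cux1* and *Cux2* encode homeodomain proteins of the Cut family that mark layers 2 to 4 and shape dendrites and synapses there. Their counts were read over 301 kb of chromosome 5 (136266415 to 136567445, 24 exons) and 188 kb of the same chromosome (121860216 to 122047825, 23 exons). *Cux1* gave 5066, 3661, 4359 and 4654 in controls 1 to 4, and 5677, 4909, 5711 and 5789 in *Fezf2 shRNA* libraries 1 to 4. Only treated library 2 fell below the highest control, control 1. The mean was 5521 ± 411 (SD, n = 4) in treated and 4435 ± 592 (SD, n = 4) in control M1, a log2 fold change of 0.32 ± 0.10 (SE) with an adjusted p of 0.110 by edgeR.

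*Cux2* gave 3703, 2630, 3457 and 4142 in controls 1 to 4, and 4825, 4326, 3606 and 4018 in the treated libraries. All 4 treated libraries lay above the control mean of 3483, but 2 of them lay below control 4. Its log2 fold change was 0.27 ± 0.13 (SE), with a 95% interval from -0.02 to 0.56 and an adjusted p of 0.279 by edgeR. In both genes control 2 held the lowest count. Without control 2 the log2 fold change was 0.23 for *Cux1* and 0.15 for *Cux2*.

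*Rorb* encodes a nuclear receptor that marks layer 4 and is used to identify the neurons that receive thalamic input. Over 70.5 kb of chromosome 19 (18930605 to 19001117, 10 exons) it gave 3303, 2186, 2002 and 2616 in controls 1 to 4, and 3274, 2097, 4098 and 4095 in *Fezf2 shRNA* libraries 1 to 4. Treated libraries 3 and 4 were higher than every control, and treated library 2 was lower than 3 of the 4 controls. It was the most variable of the 9, with a coefficient of variation of 22.9% in controls and 27.9% in treated libraries. The log2 fold change, 0.42 ± 0.21 (SE), was the highest of the 9, yet its 95% interval ran from -0.04 to 0.89 and its adjusted p was 0.285 by edgeR. Without treated library 2 it was 0.60, with an adjusted p of 0.076.

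*Rasgrf2* encodes an exchange factor for Ras and Rac that responds to calcium and is strong in layers 2 and 3. Over 247 kb of chromosome 13 (91884432 to 92131494, 34 exons) it gave 4590, 3393, 4806 and 4774 in controls 1 to 4, and 6218, 5181, 4293 and 5202 in the treated libraries. As in the Cux genes, control 2 was the lowest of all 8, and 3 of 4 treated libraries stood above every control. The log2 fold change of 0.25 ± 0.13 (SE) had an adjusted p of 0.295 by edgeR, and it was 0.14 without control 2.

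The POU genes of class III, *Pou3f1*, *Pou3f2* and *Pou3f3* (also known as Oct6, Brn2 and Brn1), encode transcription factors of cortical progenitors and neurons. They were placed among the upper-layer genes by name, and in tissue of all layers their reads cannot be assigned to a layer. All 3 are single exons with no intron in the counted interval, of 3.85, 5.59 and 7.41 kb. *Pou3f1* (chromosome 4, 124656807 to 124660655) gave 718, 804, 775 and 622 in controls 1 to 4, and 768, 593, 496 and 674 in treated libraries 1 to 4. No treated library exceeded the highest control and 3 of 4 lay below the control mean of 730. The log2 fold change was -0.21 ± 0.14 (SE), with an adjusted p of 0.412 by edgeR, and it ran from -0.31 without treated library 1 to -0.10 without treated library 3.

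*Pou3f2* (chromosome 4, 22482780 to 22488366) gave 1610, 1235, 1357 and 1471 in controls and 1712, 1305, 1335 and 1326 in treated libraries, so that one treated library stood above the rest of its group. Its log2 fold change was 0.00 ± 0.11 (SE), with a 95% interval from -0.24 to 0.24. *Pou3f3* (chromosome 1, 42695768 to 42703176) gave 1966, 1877, 2088 and 1966 in controls and 1996, 1824, 1807 and 1904 in treated libraries. It was the steadiest of the 9, with a coefficient of variation of 4.40% in controls and 4.59% in treated libraries, and its log2 fold change of -0.07 had a 95% interval from -0.21 to 0.07 and came to -0.03 without control 3. The adjusted p by edgeR was 0.997 for *Pou3f2* and 0.561 for *Pou3f3*.

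*Lmo4* encodes a LIM-only cofactor that takes part in the sorting of callosal from subcerebral neurons. Over 16.7 kb of chromosome 3 (144188530 to 144205220, 5 exons) it gave 6029, 5353, 6206 and 5830 in controls 1 to 4, and 5937, 6468, 4579 and 4855 in treated libraries 1 to 4. The treated group held both the highest and the lowest value, which left a log2 fold change of -0.10 ± 0.10 (SE) and an adjusted p of 0.615 by edgeR. Leaving out 1 library moved it from -0.19 without treated library 2 to -0.02 without treated library 3. Treated libraries 3 and 4 were the lowest for *Lmo4* and the highest for *Rorb*.

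*Lhx2* encodes a LIM homeodomain factor that, in development, promotes cortical over hem identity and is kept in upper layers. On chromosome 2 (38350759 to 38369733, 5 exons) it gave 1087, 1176, 1222 and 1268 in controls and 1256, 1395, 1134 and 1150 in treated libraries. The ranges lay one over the other, and the log2 fold change was 0.05 ± 0.08 (SE), with a 95% interval from -0.13 to 0.24 and an adjusted p of 0.742 by edgeR.

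**Figure D2:**
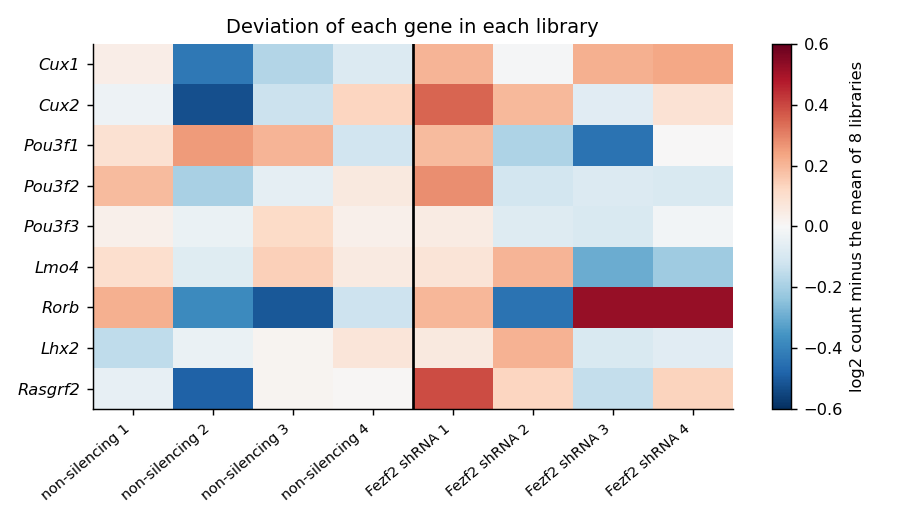
Deviation of each gene in each library, in log2 units from the mean of the 8 libraries (colour scale, red above and blue below; control libraries left of the black line, Fezf2 shRNA libraries right). Rorb varies most between libraries, and control 2 is low for Cux1, Cux2 and Rasgrf2.

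The map of deviations shows which genes varied together from library to library. Over the 8 libraries, Pearson's r of log2 counts was 0.94 between *Cux2* and *Rasgrf2*, 0.81 between *Cux1* and *Rorb* and 0.74 between *Cux1* and *Cux2*. Within groups, after taking out the group means, these values were 0.92, 0.76 and 0.58. *Lmo4* ran against *Rorb*, with r of -0.71 overall and -0.66 within groups. The 8 points share the same libraries and their depth, and r is given as a description. Of all 9950 other tested genes, *Ccdc57* (chromosome 11, 120826529 to 120932872) had the pattern most like both *Cux2* (r = 0.96) and *Rasgrf2* (r = 0.94), *Acap2* was nearest to *Rorb* (r = 0.97), *Tuba1c* to *Lmo4* (r = 0.98), *Txndc17* to *Pou3f3* (r = 0.98), *Bbof1* to *Pou3f2* (r = 0.96), *Elfn2* to *Pou3f1* (r = 0.92) and *Adra1d* to *Lhx2* (r = 0.93). The nearest to *Cux1* was *Gm16599* (r = 0.98), an antisense gene that lies wholly inside the *Cux1* interval and was counted from the same reads.

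Each deposited count takes in every read between the 2 ends of a transcript, from exons and introns and from either strand. Most bases of a long interval are intronic, though its reads need not be. In *Rorb* the wholly exonic last 5.96 kb held means of 1365 of 2527 normalised reads in controls and 1726 of 3391 in treated M1. In the 9 genes the larger positive values were those of the longer intervals. The 4 intervals over 50 kb (*Cux1*, *Rasgrf2*, *Cux2* and *Rorb*) had log2 fold changes from 0.25 to 0.42, and the 5 shorter ones from -0.21 to 0.05. The medians of all tested genes had the same order. Intervals of at most 10 kb (2154 genes) had a median log2 fold change of -0.12, which was -0.07 between 10 and 30 kb (2983 genes), 0.01 up to 100 kb (3118 genes), 0.15 up to 300 kb (1297 genes) and 0.29 beyond (407 genes).

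**Figure D3:**
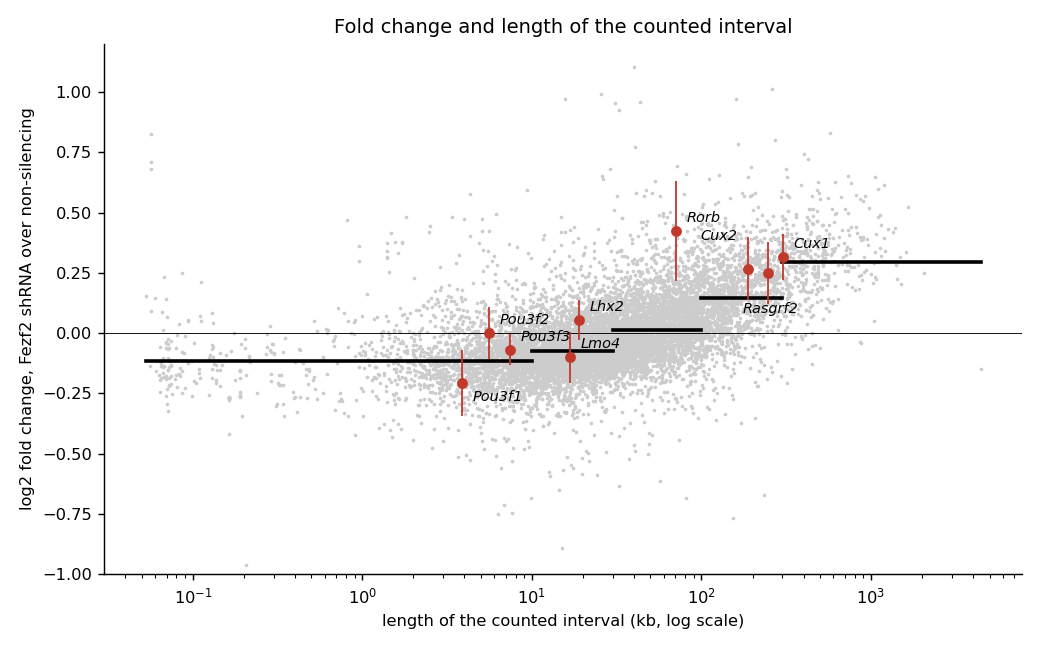
Log2 fold change of Fezf2 shRNA over control (vertical axis) against the length of the counted interval in kb (horizontal axis, log scale) for tested genes (grey; 16 genes beyond -1 or 1.2 are not shown) and the 9 upper-layer and callosal genes (red, with SE). Black lines are medians of the 5 length classes, rising from -0.12 to 0.29; Cux1 lies near the median of its class, Cux2 and Rasgrf2 lie about their SE above theirs and Rorb further above its own.

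Against the medians of their own classes, *Cux1* at 0.32 stood beside 0.29, and *Cux2* at 0.27 and *Rasgrf2* at 0.25 stood beside 0.15. *Rorb* at 0.42 stood furthest above its class, whose median was 0.01. The intronless POU genes can be set beside 154 tested protein-coding genes counted over 1 exon, whose median was -0.10 with quartiles of -0.19 and -0.01: *Pou3f1* lay below that range, *Pou3f3* within it and *Pou3f2*, at 0.00, just above it. With a per-library offset fitted on the length of the interval, the log2 fold change came to 0.07 for *Cux1*, 0.08 for *Cux2*, 0.03 for *Rasgrf2*, 0.36 for *Rorb*, 0.12 for *Lhx2*, 0.11 for *Pou3f2*, 0.04 for *Pou3f3*, -0.03 for *Lmo4* and -0.10 for *Pou3f1*. So 7 of the 9 were positive, beside 45.3% of all tested genes. None passed the threshold, beside 0.0201% of all tested genes, and the lowest adjusted p of the 9 was then 0.580, by edgeR, for *Rorb*. With this offset 2 of all tested genes passed, both lower, where without it 195 of 208 were higher.

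Nested transcripts in the count table allow stretches of a gene to be read apart, by taking the count of an inner interval from that of an outer one. In *Cux1*, a 10.1 kb stretch in which 91.8% of bases are exonic gave 1600, 1079, 1034 and 1308 normalised reads in controls 1 to 4, and 1426, 1050, 1282 and 1551 in the treated libraries. The groups overlapped and the log2 difference was 0.09 (two-sided exact permutation test over the libraries, p = 0.714, n = 4 and 4). A 207 kb stretch of the same gene, with 2.65% exonic bases (136360019 to 136567248), gave 1963, 1343, 1960 and 1768 in controls and 2480, 2212, 2513 and 2358 in the treated libraries. Every treated library lay above every control there, with a log2 difference of 0.46 and an exact permutation p of 0.0286, the smallest that 4 against 4 can give. How often intronic stretches of other genes separate in this way was not counted. Over their counted intervals 11.8% of all tested genes did. Exons of other annotated genes cover 3.74% of this 207 kb stretch of *Cux1*, and their reads are counted in it. Within each library the ratio of the intronic to the exonic stretch, which does not depend on scaling, was higher by 0.37 in treated M1 (exact permutation p = 0.0857), with overlapping groups.

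In *Rorb* both stretches held more reads in treated M1 on average, within the spread of the libraries. Its last 5.96 kb, wholly exonic, held 1741, 1202, 1172 and 1344 reads in controls and 1794, 1074, 2028 and 2005 in treated libraries, a log2 difference of 0.31 (exact permutation p = 0.286). The 110 kb of intron between a more distant start and the counted interval (0.586% exonic) held 1635, 890, 1473 and 1433 in controls and 2697, 1057, 2135 and 2578 in treated libraries, a log2 difference of 0.59 (exact permutation p = 0.171). Treated library 2 was low in both stretches.

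*Cux2* had no stretch above 80% exonic. A pair of end pieces of 5.88 kb in all, 67.9% exonic, differed by 0.26 (exact permutation p = 0.171), while 123 kb of intron at 0.436% exonic held 242, 259, 486 and 368 reads in controls and 717, 715, 568 and 372 in treated libraries. The log2 difference there was 0.82 (exact permutation p = 0.0571), with treated library 4 lying within the control range. In *Rasgrf2* the 100.8 kb intronic stretch, 0.815% exonic, differed by 0.50 (exact permutation p = 0.114), and a 2.41 kb stretch of 20.8% exonic bases differed by -0.05 (exact permutation p = 0.686). The ratio of the former to the latter was higher in every treated library than in any control, by 0.56 (exact permutation p = 0.0286). The share of other genes with such a separated ratio was not counted. Adjusted over the 12 stretch tests by the Benjamini-Hochberg method, the exact permutation p was at least 0.343, and over the 6 ratio tests it was at least 0.171.

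**Figure D4:**
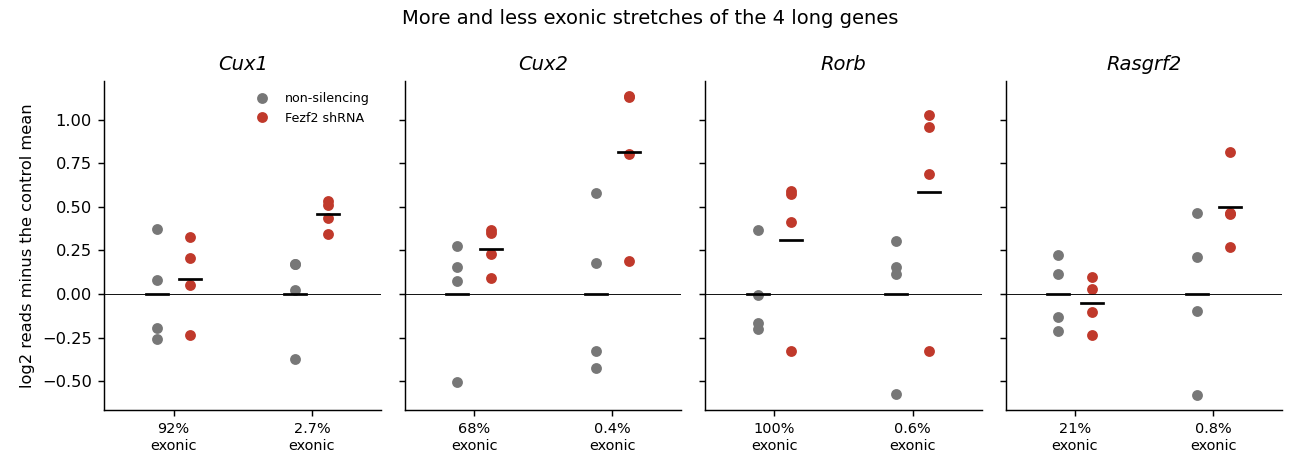
Log2 normalised reads of each library minus the control mean (vertical axis) in the more exonic and the less exonic stretch of Cux1, Cux2, Rorb and Rasgrf2 (horizontal axis, share of exonic bases); grey points are control and red points Fezf2 shRNA libraries, and black bars are means. The less exonic stretch stands higher in treated M1 in all 4 genes, by 0.46 to 0.82, and the more exonic one differs by -0.05 to 0.31.

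Among the shorter genes with introns, neither *Lmo4* nor *Lhx2* had a stretch that counted as intronic. Their least exonic stretches held 370 and 40.3 reads per kb, where those of *Cux1*, *Cux2*, *Rorb* and *Rasgrf2* held 3.79 to 15.8. Reads of exons may make up much of these counts in *Lmo4* and *Lhx2*, so their ratios cannot be read as intron over exon. By value alone, the log2 difference was higher in the less exonic stretch of *Lmo4* and not in that of *Lhx2*. *Lhx2* differed by 0.04 in its most exonic stretch and by 0.00 in its least exonic one, and *Lmo4* by -0.47 in a 0.678 kb exonic piece (exact permutation p = 0.171) and by -0.06 over 12.3 kb with 11.3% exonic bases. The ratio of the less to the more exonic stretch was higher in treated M1 by 0.41 in *Lmo4* (exact permutation p = 0.0857) and by 0.28 in *Rorb* (exact permutation p = 0.229), and in *Lhx2* it differed by -0.04 (exact permutation p = 0.743). In 915 tested genes with an exonic and an intronic stretch, the median log2 difference was -0.05 for the exonic and 0.20 for the intronic stretch, and the intronic one was higher in 86.9% of them. Among the 378 of these over 100 kb the share was 91.8%. The order seen in *Cux1* and *Rorb* was that of most such genes, and nothing particular to upper-layer genes can be read from it.

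Levels of the genes can be compared only per length of exon. Averaged over the 8 libraries, exonic stretches held 874 reads per kb in *Lmo4*, 260 in *Pou3f3*, 259 in *Rorb*, 254 in *Pou3f2*, 177 in *Pou3f1* and 128 in *Cux1*. *Lmo4* stood apart at the top, and the 3 next did not differ beyond the spread of *Rorb* between libraries, from 1074 to 2028 reads over the same stretch. The value of *Lmo4* rests on 1 piece of 0.678 kb with 592.5 reads on average. Its 12.3 kb stretch with 11.3% exonic bases held 4552, so the piece need not stand for all exons of the gene. *Cux2*, *Lhx2* and *Rasgrf2* have no stretch exonic enough for this order.

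Several counts are shared with other annotated genes, since strand was not used. Apart from *Gm16599*, the antisense gene *Gm13584* covers 23.2% of the *Lhx2* interval, *Gm3970* covers 2.33% of that of *Cux2*, and *Gm2164* covers 9.43% of that of *Pou3f1*. The sense gene *AC122898.1* spans all of *Pou3f3*, and *Gm43445* lies within 12.5% of *Lmo4*. *Cux1* also holds *A430110C17Rik*, *Gm38082* and *Mir721*. Reads of these genes and of the members cannot be told apart.

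Among 30 further genes known from upper-layer and callosal neurons, 24 were tested and 22 had a positive log2 fold change, beside 43.4% of all tested genes, with a median of 0.16 beside -0.03 for all genes. The counted intervals of the 24 had a median length of 85.3 kb, beside 28.5 kb for all tested genes. Of tested genes with intervals between 30 and 100 kb, 55.7% were positive, rising to 85.4% up to 300 kb and 95.1% beyond. Of the 24, 1 passed the threshold, beside 2.09% of all tested genes. *Unc5d*, a netrin receptor of migrating upper-layer neurons, gave 6409, 5669, 6277 and 6137 in controls and 10427, 8827, 12989 and 11353 in treated libraries, a log2 fold change of 0.83 ± 0.10 (SE) with an adjusted p of 0.012 by edgeR, over 573 kb. *Tle1*, a Groucho corepressor, followed at 0.34 (adjusted p = 0.055 by edgeR) and the ephrin receptor *Epha3* at 0.57 (adjusted p = 0.094 by edgeR). The 2 genes with a negative value were *Dkk3* at -0.15 and *Chn2* at -0.16. With the length offset 17 of 24 remained positive, beside 45.3% of all tested genes, and *Unc5d* at 0.51 no longer passed. The median of the 24 was then 0.11, beside -0.01 for all tested genes.

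Of 16 relatives and cofactors of the 9, 9 were tested and none passed. Those with positive values included *Rora*, the closest relative of *Rorb*, at 0.50 over 734 kb (adjusted p = 0.059 by edgeR) and *Pou2f1* at 0.27, and the negative ones were *Ldb1* at -0.17, *Lmo3* at -0.08 and *Lhx6* at -0.07. For comparison, 15 deep-layer genes held 12 that were tested, of which 9 were negative, with a median of -0.14, and none passed. The targeted gene *Fezf2* was among the negative ones. Over all tested genes 5640 of 9959 were negative, with a median of -0.03, and 2.09% passed. Besides *Fezf2*, *Crym* was lowest at -0.27, and *Foxp1* (233 kb) at 0.32 and *Sox5* (381 kb) at 0.27 were highest. With the length offset the medians were 0.11 for the upper-layer and -0.20 for the deep-layer genes, beside -0.01 for all tested genes.

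**Figure D5:**
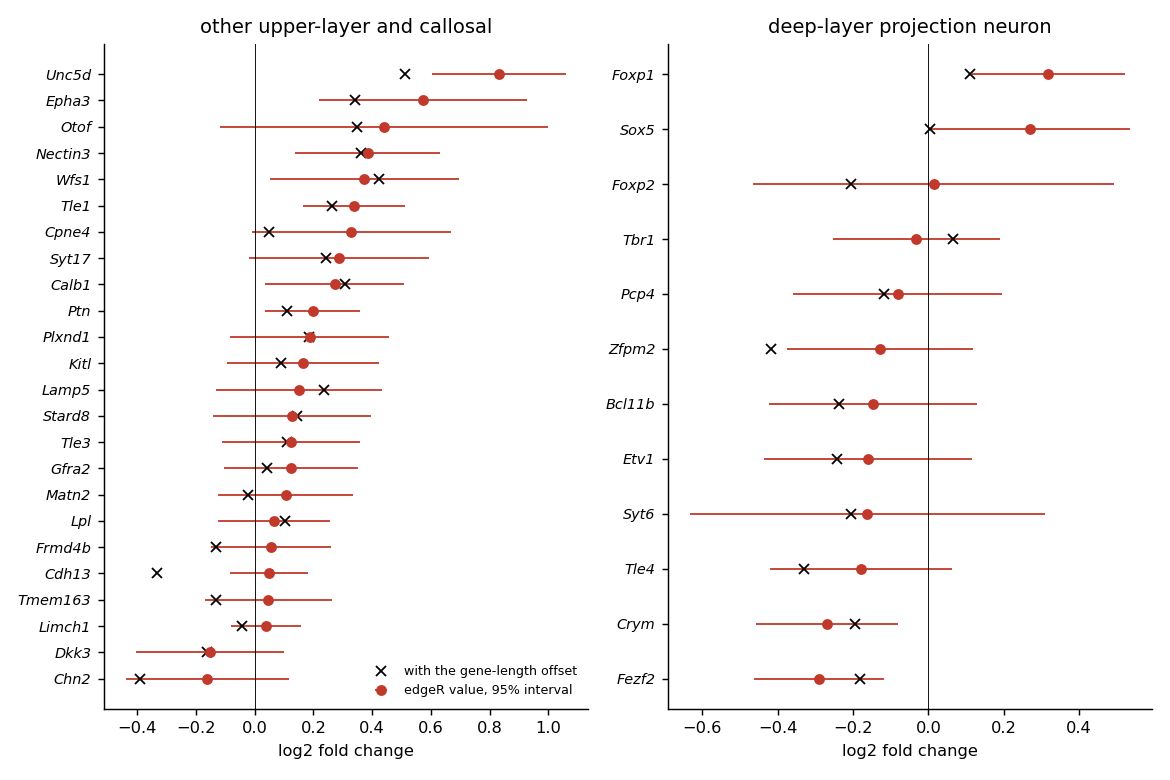
Log2 fold change (horizontal axis) of 24 other upper-layer and callosal genes (left) and 12 deep-layer projection neuron genes (right), as red points with 95% intervals by edgeR, and as black crosses with the gene-length offset. On the left 22 of 24 points are positive and on the right 9 of 12 are negative, Fezf2 among them. Over all tested genes 5640 of 9959 are negative.

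All 8 oligodendrocyte genes had a negative log2 fold change, with a median log2 fold change of -0.53 and none past the threshold, and their summed counts ran from 48147 to 78998 in treated and from 64988 to 117334 in control libraries. None of the 8 was at 0. All 4 tested of 6 oligodendrocyte precursor genes were negative too, with a median of -0.20 and sums from 5029 to 5876 in treated and from 5593 to 7233 in control libraries. The sums of both lists overlapped between the groups. So did those of astrocyte, inhibitory neuron, striatal neuron and endothelial genes, whose medians lay between -0.11 and -0.08. Of 8 microglial genes 7 were tested, with a median of 0.08, and the sum of that list is not reported here. None of the tested genes of these lists passed the threshold. The part of these differences in the values of the 9 genes was not tested.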

How the data were processed

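Processed counts of 8 M1 libraries, 4 per group, were used. Per the labels and the study's methods, the authors trimmed reads with fastq-mcf, aligned them to mm10 with TopHat2 2.1.1 and counted reads over Ensembl transcript intervals with bedtools 2.26.0; the deposited counts are raw, 1 row per transcript, and an unused deposited table holds the authors' own DESeq2 comparison (fold changes and p-values). Of 94647 transcripts, 91320 were found in GENCODE M21; the other 3327 held 1.82% of counts. The transcript with the lowest Ensembl number stood for each of 38031 genes. The 9959 genes that exceeded 8 CPM in 4 or more libraries were fitted with edgeR 4.0.16 (quasi-likelihood test, TMM, Benjamini-Hochberg adjustment over all of them, no block); the SE is the size of the log2 fold change divided by the square root of F. Normalised read counts are counts divided by TMM-scaled library size and multiplied by its mean. Stretch tests used log2 of reads plus 1, chosen, like the ratios, after seeing that counts cover introns. An exonic stretch had at least 80% exonic bases, an intronic one at most 5%, and each at least 100 reads on average; where a gene had none, its most or least exonic stretch was used. Alternatives were DESeq2 1.42.0, other scalings, filters and transcripts, a replicate block, a length offset (loess, span 0.3) and each library left out. The test scripts were tested on simulated data. The nearest gene by r, all 9 genes, *Fezf2*, genes sharing their interval, the 3 genes of lowest p in each direction of 2 lists and list genes past the threshold were named; *Crym*, *Foxp1* and *Sox5* were named after their values were seen, and some genes are not reported here. The 9 genes, the lists and the tests were chosen with earlier results of these data known. The same-numbered libraries of the 2 groups are not stated to share an animal or day, so no pairing was assumed. The study's text gives 4 injected mice and 4 M1 libraries for each treatment. The p-values cover the spread between these libraries.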

Additional observations from a re-analysis of the deposited data

Results flagged for a closer look

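Among 30 groups of 4 libraries examined, for the 9 genes and their stretches, 3 held a library far from the other 3, by Dixon's ratio; chance flags about 1 in 20 groups. *Cux1* stood at 4909 in *Fezf2 shRNA* library 2, below 5677 to 5789 in the other treated libraries (ratio 0.872). *Pou3f2* stood at 1712 in *Fezf2 shRNA* library 1, above 1305 to 1335 in the others (ratio 0.928), and without that library its log2 fold change was -0.10. *Rasgrf2* stood at 3393 in control 2, below 4590 to 4806 in the other controls (ratio 0.848), and without it the log2 fold change was 0.14. The causes were not tested.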

How the results depend on the processing

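Of 171 values of the 9 genes under alternatives, 160 kept their direction and their side of the threshold. *Cux1* passed under DESeq2 only, at 0.32 without and 0.28 with its prior, so that 1 of the 9 genes passed in both forms; the other alternatives left 0. The sign of *Pou3f2* turned to -0.0289 with library totals, -0.0010 with the widest transcript and -0.0011 with the replicate block, and its values without 1 library ran from -0.101 to 0.0674. *Pou3f3* turned to 0.0359 with the length offset and 0.0351 with offset and block, and *Lhx2* to -0.00952 without *Fezf2 shRNA* library 2 (0.0969 at the highest, without library 3). Of 90 stretch values all stayed within 1 SD, and 5, all of *Pou3f2*, changed sign.

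Counts over all genes moved most. From 208 they became 136 with library totals, 84 above 1 CPM, 103 unfiltered, 752 and 734 by DESeq2 without and with its prior, 90 with the replicate block, 2 with the length offset with or without the block, 534 at an adjusted p of 0.1, and 0 to 368 without 1 library; the 0 arose without control 1, with 1568 genes at an unadjusted p below 0.05 by edgeR, and 4, 5, 13 and 17 without control 4 and treated libraries 3, 1 and 4. The other upper-layer genes past the threshold were 4 by DESeq2 in both forms, 2 with the block, 0 with the offset with or without the block, 3 at 0.1 and 0 to 2 without 1 library (0 without control 1 or 4). The relatives gave 2 by DESeq2 in both forms, 1 with the block, 2 at 0.1 and 0 to 2 without 1 library. The deep-layer genes gave 2 by DESeq2 in both forms, 2 at 0.1 and 0 to 1 without 1 library. The causes were not tested.

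Same-numbered libraries did not deviate together throughout (r from -0.13 to 0.31, 2 of 4 controls closest to their own number), so the replicate block is given here only; under it none of the 9 genes passed. A biological coefficient of variation of 11.7% with 4 libraries a group limits small differences.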
